A study of Homo sapiens with 6 samples.

Results

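The RUNX1, RUNX2, RUNX3 and CBFB loci were followed in chromatin accessibility data whose samples are labelled as DAMI, a human leukaemia cell line. Peaks were taken wherever they overlapped 1 of 4 fixed windows on the hg19 genome: RUNX1 on chromosome 21 from 36.15 to 36.45 Mb, RUNX2 on chromosome 6 from 45.28 to 45.54 Mb, RUNX3 on chromosome 1 from 25.21 to 25.31 Mb, and CBFB on chromosome 16 from 67.045 to 67.15 Mb. The windows held 65 of 112610 peaks in cells infected with a lentivirus against HMGA1 (shHMGA1) and 75 of 127153 peaks in cells infected with a control lentivirus (Con). Per the labels, each group has 3 samples of DAMI cells, all given the disease state MPN/AML (myeloproliferative neoplasm or acute myeloid leukaemia); the control samples carry TRC in their titles, and nothing says whether the samples are separate cultures. The series' design text also names the SET-2 cell line; all 6 samples described here are labelled DAMI, and whether reads of SET-2 entered the lists is not stated. The assay was ATAC-seq, in which the Tn5 transposase marks open DNA, and the design asks how silencing of the chromatin protein HMGA1 changes accessible sites. The data are 1 peak list per group, so differences between the lists cannot be set against the spread of replicates, and p-values for the conditions were not computed. Read depth and the way the 3 samples entered a list are unknown. No hg19 gene annotation was used, so gene starts, introns and exons are named only where the window definition gives them, and the identity of the cell line was not checked against marker genes.

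RUNX1, RUNX2 and RUNX3 are transcription factors that bind DNA through the Runt domain, and CBFB is the non-DNA-binding partner that stabilises all of them on DNA. RUNX1 is required for the emergence of blood stem cells and for megakaryocyte maturation, and RUNX1 and CBFB are recurrent targets of mutations and fusions in leukaemia. RUNX2 is the master regulator of bone formation, and RUNX3 acts in T cells and sensory neurons. Each RUNX gene is transcribed from a distal and a proximal promoter, and RUNX1 also has an enhancer in the intron between them that is active in blood stem cells.

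Promoter sequences of the RUNX genes were read from RefSeq (build GRCh38.p14), which held 5 promoters of 300 bases for RUNX1, RUNX2 and RUNX3. CBFB and the distal start of RUNX1 had no entry. Capitals mark the RUNX letters TGTGGT, the GATA letters AGATAA and the ETS letters CCGGAA on either strand, and no marked letters overlapped. Each sequence runs from 250 bases before the start to 50 after it. The RUNX1 sequence is shown because the most significant peak of the RUNX1 window lay near the position given for that start, and the distal RUNX2 and RUNX3 sequences because of a stretch they have in common.
RUNX1 proximal, chr21:34888650-34888949, minus strand: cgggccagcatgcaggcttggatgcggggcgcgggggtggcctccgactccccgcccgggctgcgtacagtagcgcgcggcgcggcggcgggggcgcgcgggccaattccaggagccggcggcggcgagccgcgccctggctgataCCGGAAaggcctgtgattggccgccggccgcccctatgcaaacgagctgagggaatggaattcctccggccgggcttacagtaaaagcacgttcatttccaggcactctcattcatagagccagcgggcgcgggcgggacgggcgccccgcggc
RUNX2 distal, chr6:45328080-45328379, plus strand: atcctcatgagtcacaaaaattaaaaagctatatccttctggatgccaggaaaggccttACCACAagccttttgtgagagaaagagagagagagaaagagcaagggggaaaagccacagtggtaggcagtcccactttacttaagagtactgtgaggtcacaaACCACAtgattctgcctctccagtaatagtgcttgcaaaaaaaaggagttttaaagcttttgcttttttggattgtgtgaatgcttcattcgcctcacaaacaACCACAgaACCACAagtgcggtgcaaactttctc
RUNX3 distal, chr1:24964961-24965260, minus strand: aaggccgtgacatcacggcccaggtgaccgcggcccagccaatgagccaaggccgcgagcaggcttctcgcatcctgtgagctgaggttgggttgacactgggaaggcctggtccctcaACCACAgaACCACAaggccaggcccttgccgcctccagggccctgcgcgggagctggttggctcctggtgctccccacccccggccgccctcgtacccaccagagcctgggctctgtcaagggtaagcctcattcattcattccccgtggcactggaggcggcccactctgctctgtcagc

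The distal promoters of RUNX2 and RUNX3 carried RUNX letters, and the 3 proximal promoters did not. RUNX2 distal held 4 matches, with first bases at −191, −87, +17 and +25 from the start, and RUNX3 distal held 2, at −131 and −123. The longest run of bases common to both was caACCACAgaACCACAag, 18 bases with 2 RUNX matches, and RUNX2 and RUNX3 were the only genes of 35116 RefSeq promoters to hold it. The run was chosen from these 2 promoters, so its absence from the promoters of other genes is no test. Whether the distal promoter of RUNX1 holds it was not examined, since that promoter had no entry. Among the 35116 promoters, 13.1% held at least 1 RUNX match, 10.3% a GATA match and 17.2% an ETS match. RUNX1 proximal held 1 ETS match, at −104, and none of the 5 promoters held the GATA letters. Base composition also differed among the 5 promoters, and only RUNX2 distal lay below the median of all promoters. GC content was 72.0% in RUNX1 proximal and 76.0% in both RUNX2 proximal and RUNX3 proximal, against 66.3% in RUNX3 distal, 42.7% in RUNX2 distal and a median of 58.7% over all promoters. These matches are letters in a window and were not tied to a peak, since peaks lie on hg19.

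In both conditions the RUNX1 window was far denser in peaks than the other windows, which differed less from each other. RUNX1 held 49 peaks in shHMGA1 and 54 in Con, or 16.3 and 18.0 per 100 kb. RUNX2 held 10 and 13 (3.85 and 5 per 100 kb), RUNX3 held 3 and 3 (3 per 100 kb in each), and CBFB held 3 and 5 (2.86 and 4.76). Among 9144 tiles of 300 kb on the autosomes and X with a peak in at least 1 list, the median tile held 9 shHMGA1 and 10 Con peaks, and 2.36% and 2.40% of tiles held as many as the RUNX1 window. Of these tiles, 185 of 216 in shHMGA1 and 192 of 219 in Con lay on chromosomes 4 and 9. For RUNX2, RUNX3 and CBFB, 32.5 to 63.4% of tiles of the same length held as many.

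Together the windows had a ratio of shHMGA1 to Con peak numbers of 0.867, close to the 0.886 of the whole lists. The ratio was 0.907 for RUNX1, 0.769 for RUNX2, 1 for RUNX3 and 0.600 for CBFB. With so few peaks these ratios depended on how peaks were counted. When peaks within 150 bp were merged, RUNX1 held 47 in shHMGA1 and 45 in Con, a ratio of 1.04. When only peaks at or above the median summit −log10 p of the joined lists were kept, CBFB held 3 and 2, a ratio of 1.5. Peaks covered 53.9 kb in shHMGA1 and 61.4 kb in Con of the 4 windows, and the lists had 66.0% of the covered bases in common, against 63.0% over the whole lists. The peak caller's signal value, the area under the significance curve of a peak (called the area from here on; the authors' own value, not scaled between lists), summed to 118227 in shHMGA1 and 134858 in Con, with means per base of 2.19 and 2.20.

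**Figure D1:**
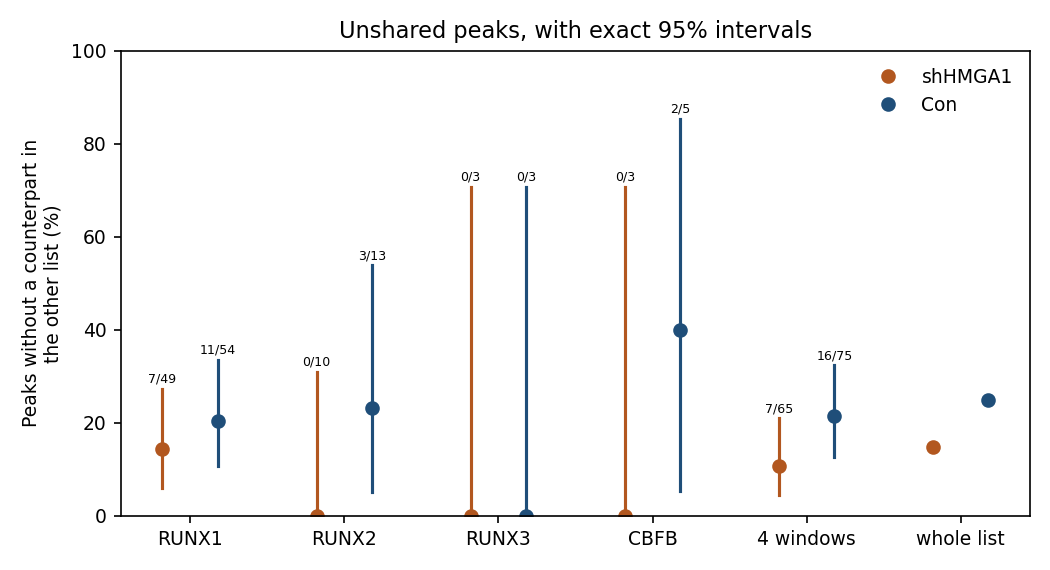
Percentage of peaks without a counterpart in the other list (vertical axis) in each window, in the 4 windows together and in the whole lists. Points are shares, lines are exact 95% binomial intervals that cover counting error only, and the labels give unshared peaks over all peaks of the window; the interval of every window spans the share of its whole list, 14.8% for shHMGA1 and 24.9% for Con.

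Most accessible sites of the RUNX and CBFB loci overlapped a site of the other condition by at least 1 bp. In shHMGA1, 7 of 65 peaks (10.8%, exact 95% interval 4.44 to 20.9) had no 1 bp overlap with a Con peak, against 14.8% of the whole list. In Con, 16 of 75 peaks (21.3%, interval 12.7 to 32.3) had no shHMGA1 counterpart, against 24.9% of the whole list. The shares of both lists lay within counting error of the background. How many sites count as shared depended on the overlap asked for: with a reciprocal overlap of 50%, 20 of 65 shHMGA1 peaks (30.8%) and 30 of 75 Con peaks (40.0%) were unshared, against 29.6% and 37.7% of the whole lists. All 7 shHMGA1-only peaks were in the RUNX1 window, while the Con-only peaks were 11 at RUNX1, 3 at RUNX2 and 2 at CBFB. That window held most peaks of the 4 windows, 49 of 65 in shHMGA1 and 54 of 75 in Con. RUNX3 had no unshared peak in either list. RUNX2 had 0 of 10 shHMGA1 peaks unshared, which allows a share of up to 30.0%, and 3 peaks in a list at RUNX3 or CBFB set no useful limit.

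The unshared sites were weak. Their summit −log10 p ran from 3.44 to 5.18 in shHMGA1 and from 3.15 to 5.58 in Con, where the medians of the whole lists are 5.22 and 5.25. Of the 23 unshared peaks, 1 lay above the median of its list. Unshared peaks were mostly weak over the whole lists too. There, 833 of 16682 in shHMGA1 and 2567 of 31635 in Con lay at or above the median of the joined lists. In the windows, 0 of 7 and 1 of 16 did. RUNX1 peaks also had a low median summit, 4.31 in shHMGA1 and 4.52 in Con, so the sharing was set against peaks of the same significance decile. Strong peaks were present too, with 6 of 49 and 7 of 54 in the most significant decile of their list. At the whole-list rates of those deciles, 23.8% of RUNX1 peaks in shHMGA1 and 32.9% in Con would be unshared, and the measured shares were 14.3% (interval 5.94 to 27.2) and 20.4% (10.6 to 33.5).

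At RUNX1, the peak with the largest area lay near the proximal start. It ran over chr21:36260291-36263918 in shHMGA1 and chr21:36260125-36263943 in Con, 3628 and 3819 bp wide. Its area was 20363 in shHMGA1, rank 272 of that list, and 21732 in Con, rank 252. The summit −log10 p was 15.4 and 15.9, and the summits lay 5 bp apart. The site ranked high by area in each list and had nearly the same position in both. Within 10 kb on either side of 36.26 Mb there were 6 peaks per list, and they held 25.2% of the RUNX1 area in shHMGA1 and 24.3% in Con. Next to it, the peak at chr21:36264660-36265033 (shHMGA1) was smaller, with an area of 323 and a summit of 4.42, against 708 and 6.12 at chr21:36264647-36265052 in Con.

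**Figure D2:**
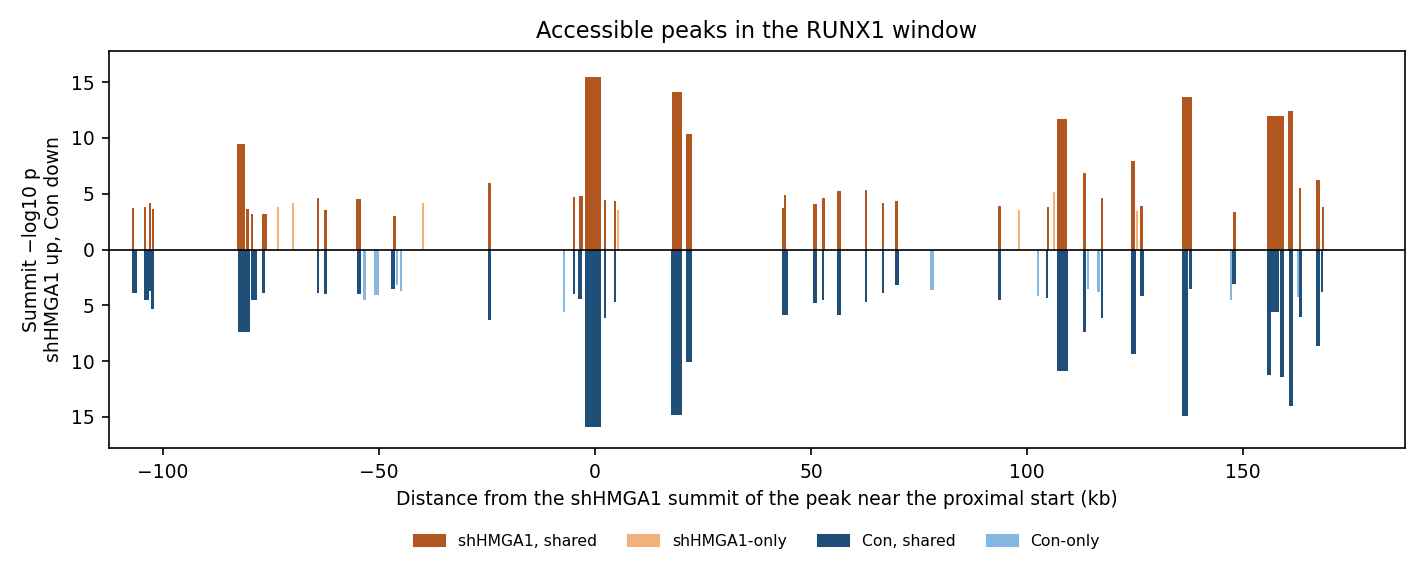
Peaks of the RUNX1 window, with distance in kb from the shHMGA1 summit of the peak near the proximal start on the horizontal axis and the summit −log10 p as bar height, upward for shHMGA1 and downward for Con. Peaks narrower than 0.5 kb are drawn 0.5 kb wide; the pale bars, 7 for shHMGA1 and 11 for Con, have no counterpart and are all short.

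The stretch that the window definition gives for the RUNX1 enhancer and distal start held peaks in both conditions, and here the lists divided the same DNA differently. Which peak is the enhancer and which the start was not determined. At the low-coordinate end of the stretch, 1 shHMGA1 peak (chr21:36398531-36400790, 2260 bp, area 7111, summit 13.7) overlapped 2 Con peaks. The first of these (chr21:36398489-36399804) had an area of 7612 and a summit of 14.9, and the second (chr21:36399929-36400780) an area of 491 and a summit of 3.53. Their gap was 124 bp, and their summed width was 2168 bp and summed area 8103. At its other end, 1 shHMGA1 peak of 4036 bp (chr21:36418114-36422149) overlapped 3 Con peaks, chr21:36418082-36419015, chr21:36419132-36420801 and chr21:36421037-36422084. Its area was 10659, against 10097 for the sum of the 3 Con peaks, whose widths summed to 3652 bp. Its summit −log10 p was 12.0, against 11.2, 5.60 and 11.4 for the Con peaks in the order given. The gaps between the Con peaks were 116 and 235 bp, and the summit of the shHMGA1 peak and that of the first Con peak fell on the same base, 36418729. The 40 kb around the stretch held 6 shHMGA1 and 11 Con peaks, which covered 9.70 and 9.79 kb. Of the 5 additional Con peaks, 3 came from these divided regions and 2 were Con-only.

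**Figure D3:**
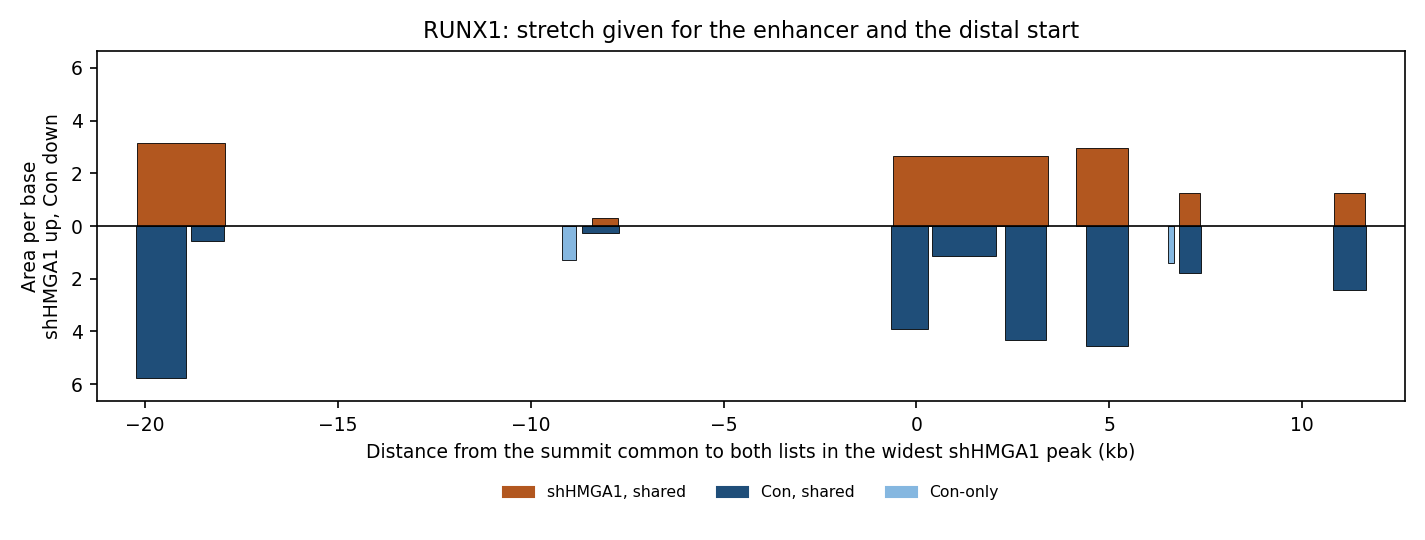
Peaks around the stretch given for the RUNX1 enhancer and distal start, with distance in kb from the summit common to both lists in the widest shHMGA1 peak on the horizontal axis and the area per base of each peak as bar height, upward for shHMGA1 and downward for Con. Bar widths are true peak widths; the shHMGA1 bar of 4036 bp at 0 kb faces 3 separate Con bars, and the leftmost shHMGA1 bar faces 2.

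Beyond that joined peak, both lists had a narrower peak at chr21:36422855-36424224 in shHMGA1 (area 4068, summit 12.4) and chr21:36423117-36424206 in Con (area 4970, summit 14.0). Farther out, the site at chr21:36429562-36430347 had an area of 997 in shHMGA1, against 2046 in Con for chr21:36429541-36430389, with summits 3 bp apart. Over the whole lists, 3.72% of shHMGA1 peaks joined 2 or more Con peaks and 3.58% of Con peaks joined 2 or more shHMGA1 peaks. In the 4 windows it was 2 of 65 and 2 of 75, shares no higher than those of the whole lists. All 4 cases were at RUNX1, which held 49 of the 65 and 54 of the 75 peaks. The Con peaks that joined shHMGA1 peaks lay at chr21:36179775-36182592 and chr21:36305862-36307170, outside the positions given for the enhancer and the starts.

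Between the positions given for the starts, RUNX1 had further strong sites that overlapped over most of their length. The peak at chr21:36280245-36282590 in shHMGA1 (area 9061, summit 14.1) matched chr21:36280163-36282623 in Con (area 9380, summit 14.8), with summits on the same base. The peak at chr21:36369528-36371759 in shHMGA1 had an area of 9626 and a summit of 11.7, against 8712 and 10.9 for chr21:36369591-36372042 in Con, and their summits were 575 bp apart, the second largest distance among the 52 regions where 1 peak of each list met. The area was larger in shHMGA1 here, unlike at the other one-to-one sites of RUNX1 named so far. In these 120 kb each list had 20 peaks, which covered 15.5 kb in shHMGA1 and 17.6 kb in Con.

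The 100 kb at the low-coordinate end of the window, past the proximal start, held weak and moderate peaks. There were 16 in each list, with a median area of 329 in shHMGA1 and 585 in Con. None was in the most significant decile of its list. The most significant was at chr21:36179514-36181529 in shHMGA1 (summit 9.49) and chr21:36179775-36182592 in Con (summit 7.41).

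The unshared sites of RUNX1 were spread over the window. The 3 most significant shHMGA1-only peaks were chr21:36368678-36368886 (summit 5.18), chr21:36222450-36222942 (4.21) and chr21:36192358-36192691 (4.21), which lay 704, 4615 and 5494 bp from the nearest Con peak. The 3 most significant Con-only peaks were chr21:36255103-36255420 (summit 5.58), chr21:36208981-36209251 (4.55) and chr21:36409552-36409907 (4.50), which lay 2046, 739 and 399 bp from the nearest shHMGA1 peak. Of the shHMGA1-only peaks at RUNX1, 3 of 7 lay within 1 kb of a Con peak, and of the Con-only peaks 6 of 11 lay that close to an shHMGA1 peak. The same share over all unshared peaks was not computed, and this window is denser in peaks than most. Whether RUNX1 differs from other loci in these counts therefore cannot be said.

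The RUNX2 window carried the highest summit of the 4 windows. Whether that peak lies at RUNX2 or at another gene was not determined. The peak at chr6:45344602-45346322 in shHMGA1 was 1721 bp wide with an area of 10930 and a summit of 16.9, at the 98.5th percentile of its list. Its Con counterpart, chr6:45344767-45346338, was 1572 bp wide with an area of 11767 and a summit of 18.1, at the 99.0th percentile. The summits were 4 bp apart. The other RUNX2 peaks had areas of at most 1701 in shHMGA1 and at most 2050 in Con. The peak at chr6:45413509-45414211 had an area of 1701 and a summit of 8.52 in shHMGA1, against 1388 and 7.08 for chr6:45413465-45414035 in Con. At chr6:45463269-45463995 the area was 1243 in shHMGA1, against 982 for chr6:45463475-45463984 in Con. The peak at chr6:45389451-45390161 in shHMGA1 was 711 bp wide with an area of 1031, against 1551 bp and 2050 for chr6:45389211-45390761 in Con. Wider in shHMGA1 was chr6:45421920-45422517, with 598 bp and an area of 601 in shHMGA1, against 171 bp and 403 for chr6:45422124-45422294 in Con. The peak at chr6:45468766-45468974 was 209 bp wide with an area of 367 in shHMGA1, against 749 bp and 835 for chr6:45468731-45469479 in Con. Likewise, chr6:45404612-45404800 was 189 bp wide in shHMGA1, against 400 bp for chr6:45404426-45404825 in Con. At chr6:45509718-45509971 in shHMGA1 the area was smaller than at chr6:45509718-45510013 in Con, with a log2 ratio of -1.42. In all, the area was larger in shHMGA1 at 4 of 10 RUNX2 regions and smaller at 6. All 10 shHMGA1 peaks paired one-to-one with a Con peak, with summits 0 to 30 bp apart. The 3 Con-only peaks at RUNX2 had summits of 4.40, 4.22 and 3.73 and lay 496, 6060 and 1826 bp from an shHMGA1 peak.

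RUNX3 had the same 3 sites in both conditions. The largest, chr1:25255851-25257353 in shHMGA1 and chr1:25255543-25257421 in Con, had areas of 4491 and 5002 and summits of 11.1 and 11.5. The next, chr1:25258777-25259362 and chr1:25258789-25259167, had areas of 1136 and 1070 and widths of 586 and 379 bp. The third, chr1:25224704-25224879 and chr1:25224711-25225000, was weak, with summits of 4.90 and 4.93 on the same base. The remaining 50.6 kb on the high-coordinate side of the window held no peak of either list.

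The CBFB window had 2 moderate peaks and 1 weaker one in both conditions. Which of them lie at CBFB itself was not determined. The widest ran over chr16:67062409-67063857 in shHMGA1 and chr16:67062440-67063835 in Con, with areas of 3045 and 4168 and summits of 9.14 and 8.91. The second, chr16:67143408-67144094 and chr16:67143271-67144113, had areas of 1328 and 2431 and summits of 7.35 and 9.07. The third, chr16:67051859-67052185 and chr16:67051858-67052144, had areas of 793 and 484 and summits of 6.27 and 5.12. The area was therefore larger in shHMGA1 at the third site and smaller at the other two, and the summit was higher in shHMGA1 at the first and the third. The Con list had 2 more peaks, chr16:67144459-67144791 and chr16:67047822-67048262, with summits of 4.53 and 4.16. The 79.4 kb between the 2 moderate peaks held no peak of either list, the longest such stretch of the 4 windows; the next longest were 57.6 kb at the low-coordinate end of RUNX2 and 50.6 kb at RUNX3.

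**Figure D4:**
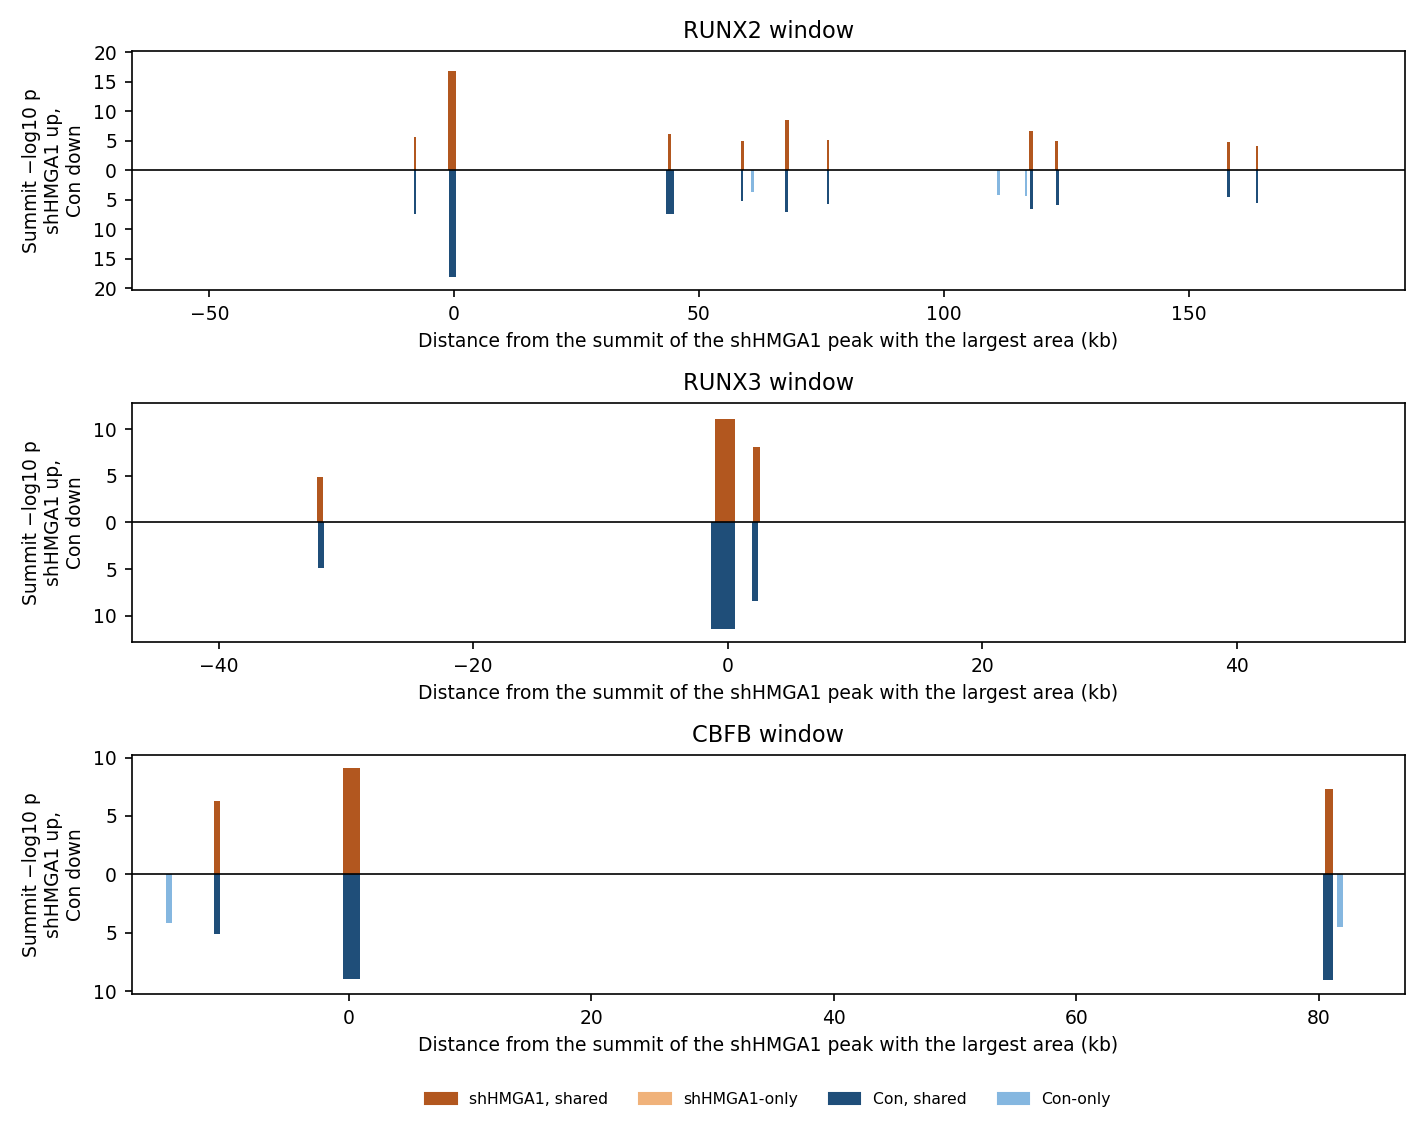
Peaks of the RUNX2, RUNX3 and CBFB windows, with distance in kb from the summit of the shHMGA1 peak with the largest area on the horizontal axis and the summit −log10 p as bar height, upward for shHMGA1 and downward for Con. Peaks narrower than 0.5 kb are drawn 0.5 kb wide; each shHMGA1 bar faces a Con bar, and the 5 pale Con bars (3 at RUNX2, 2 at CBFB) have no counterpart.

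Distances between starts in the RefSeq annotation of GRCh38.p14 were compared with distances between peaks on hg19, on the assumption, not checked here, that such distances are the same in both builds. The 5′ end of RUNX1 lies 160.603 kb from its proximal start. In both lists, the peak near 36.26 Mb and a peak of the distal stretch could hold positions that far apart, so both RUNX1 starts can lie in accessible DNA. Of the 9 peak pairs in shHMGA1 and 14 in Con that could hold such positions, 2 and 3 joined the proximal peak to a distal one. The distal peaks were chr21:36418114-36422149 and chr21:36422855-36424224 in shHMGA1, and chr21:36419132-36420801, chr21:36421037-36422084 and chr21:36423117-36424206 in Con. The 2 RefSeq starts of RUNX2 are 93.945 kb apart and those of RUNX3 34.734 kb. No pair of peaks in either list fitted these distances, so under that assumption at most 1 of the 2 starts of RUNX2 and of RUNX3 lies in a peak of the window. At CBFB, the left ends of CBFB and of PHAF1, the next gene, are 80792 bp apart, and the summits of the 2 moderate peaks were 80830 bp apart in shHMGA1 and 80774 bp in Con. Peak pairs that could hold positions that far apart numbered 1 in shHMGA1 and 2 in Con. In Con, chr16:67062440-67063835 also fitted with the Con-only peak chr16:67144459-67144791. Under the same assumption, the moderate peak at the higher coordinate may lie at PHAF1 and not at CBFB.

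Over the 52 regions of the 4 windows with exactly 1 peak in each list, width did not shift in 1 direction. The median log2 width ratio of shHMGA1 over Con was -0.04 (95% interval of the median -0.24 to 0.08), against -0.03 over all 83581 such regions. The shHMGA1 peak was the wider in 22 of 52 regions, against 44.8% over all, and in 14 of 36 at RUNX1, 5 of 10 at RUNX2, 1 of 3 at RUNX3 and 2 of 3 at CBFB. It was at least 2-fold narrower in 6 regions (3 each at RUNX1 and RUNX2; 11.5%, exact interval 4.35 to 23.4, against 5.39% over all) and at least 2-fold wider in 3 (5.77%, against 3.65%). Summits lay within 50 bp of each other in 33 of 52 regions, 63.5% against 73.5% over all and 67.1% at the rates of regions of like significance. The count was 19 of 36 at RUNX1, 10 of 10 at RUNX2, 3 of 3 at RUNX3 and 1 of 3 at CBFB, where the rates of regions of like significance were 61.6%, 78.3%, 80.8% and 81.8%. At CBFB the summits lay 8, 52 and 64 bp apart, so the count there hangs on the 50 bp limit.

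The area was more often the smaller in shHMGA1, as over the whole lists. It was larger in shHMGA1 in 18 of 52 regions, against 37.2% over all. It was at least 2-fold smaller in 9 regions, 7 at RUNX1 and 2 at RUNX2 (17.3%, exact interval 8.23 to 30.3), against 7.92% over all and 8.59% at the rates of regions of like significance. It was at least 2-fold larger in 0 of 52 (which allows up to 5.77%), against 3.24% over all. The area depends on read depth and on the way samples were combined, which are not known here, so these are differences between deposited values. Of the 7 at RUNX1, 4 lay in the low-coordinate end of the window, starting in shHMGA1 at 36155390, 36157998, 36159915 and 36182757, with log2 area ratios of -1.34, -1.48, -1.66 and -2.07. Their areas in shHMGA1 were 232, 356, 272 and 254, where the smallest area of that list is 200. In the same 100 kb the area was larger in shHMGA1 at the regions starting at 36159229, 36198174 and 36207058. Their log2 ratios were 0.35, 0.89 and 0.42, and 0.89 was the largest of the 52 regions. The log2 area ratio was -0.09 at the RUNX1 proximal peak, -0.05 at chr21:36280245-36282590 and -0.11 at the RUNX2 peak with the highest summit.

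**Figure D5:**
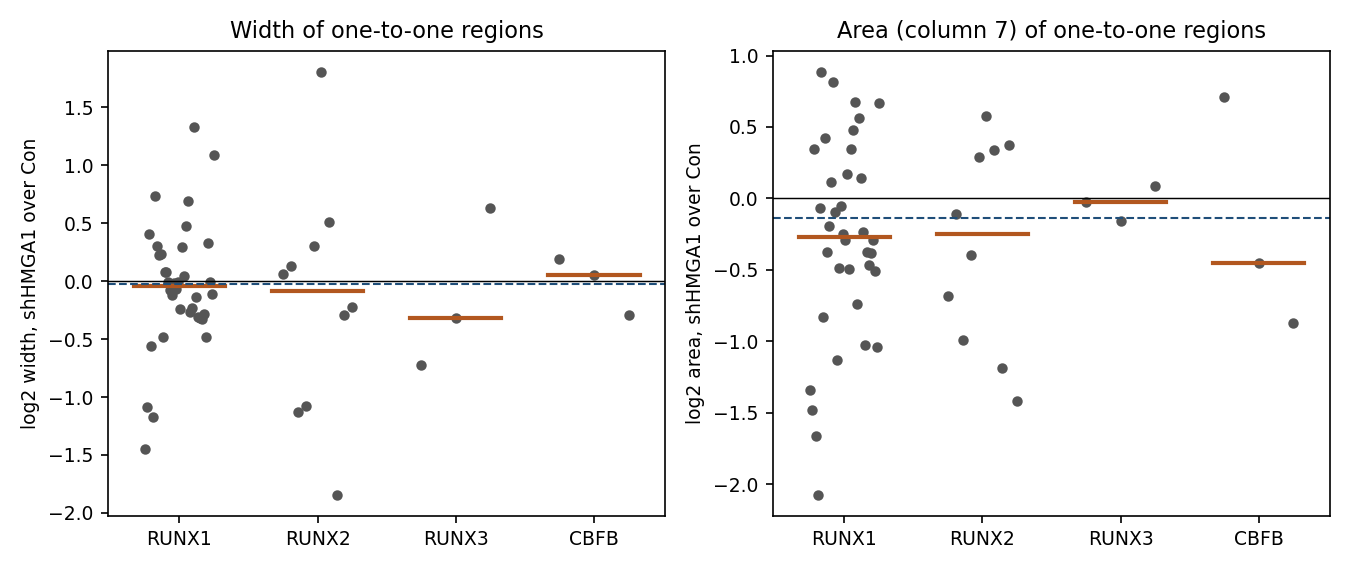
log2 ratio of shHMGA1 over Con in width (left) and in area (right) for each region with exactly 1 peak in both lists, by window. Points are regions in genome order, orange bars are medians of the window and the dashed line is the median over all 83581 regions; RUNX1 and RUNX2 points spread on both sides of 0 in width, and no point in area reaches 1.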

How the data were processed

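Open chromatin was measured by ATAC-seq. Per the submitters' processing notes, the tool was Genrich and the build hg19. Versions, settings, alignment, read filtering and the pooling of samples are not given in sources used here. Each list was assigned to its group by its name. In the deposited lists, column 8 is the −log10 p at the summit, not adjusted. Column 7 of the deposited lists is a score made by the authors' peak caller, the area under the significance curve, with no scaling between lists known. The deposited q-value column is −1 throughout. Read depth is unknown.

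Computed here were overlaps (1 bp counts as shared), one-to-one regions, widths, ranks within a list, motif matches and exact (Clopper-Pearson) 95% intervals, which cover counting error only and treat neighbouring peaks as independent. An upper limit for a count of 0 rests on 3 counts. Rates at like significance come from deciles of the summit value. Sites were named by a rule: the starts and enhancer of RUNX1, and per list and window the 3 largest areas and the 3 most significant unshared peaks. Further sites and the sections of RUNX1 were picked after their values were seen. Windows, members and lists were chosen with earlier results of these data known. Counts at start sites and at RUNX partner genes were planned but not made, since no hg19 annotation was used. Scripts were tested on simulated lists and against bedtools 2.31.1. Software was pandas 2.3.3, scipy 1.17.1, numpy 2.4.6 and matplotlib 3.10.9, under Python 3.11.15.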

Additional observations from a re-analysis of the deposited data

How the results depend on the processing

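Values are for the 4 windows together unless a gene is named. Peak numbers were 24 in shHMGA1 and 33 in Con above the joined median summit −log10 p (5.24), 24 and 32 with 56305 most significant peaks from each list, and 63 and 66 after merging within 150 bp. Assignment by summit changed none of the peak counts. Unshared peaks, beside the share of the whole list at the same setting, numbered 2 of 24 in shHMGA1 (8.33%, whole list 10.3%) and 9 of 33 in Con (27.3%, 21.8%) above the joined median, and 2 of 24 (8.33%, 14.9%) and 8 of 32 (25.0%, 15.4%) with equal numbers. With a reciprocal overlap of 50% they numbered 20 (30.8%, 29.6%) and 30 (40.0%, 37.7%). When a gap of up to 500 bp counted as shared they numbered 5 (7.69%, 12.4%) and 9 (12.0%, 21.2%). After merging they numbered 7 (11.1%, 14.8%) and 11 (16.7%, 24.7%), of which 7 and 6 at RUNX1, and when only the counted list was filtered 0 (whole list 1.49%) and 1 (3.03%, 4.01%). The unshared share of Con was lower than that of the whole list as deposited (21.3%, 24.9%). It was higher for peaks above the joined median, with equal numbers and with the reciprocal overlap. In shHMGA1 the share was higher than that of the whole list only with the reciprocal overlap. The ratio of peak numbers, whose alternatives were chosen after seeing the data, was 0.727 to 0.955. It turned round at RUNX1 with merging (1.04) and at CBFB above the joined median (1.5) and with equal numbers (1.5). At RUNX1, merging took 2 peaks from shHMGA1 and 9 from Con, and at CBFB 0 of 3 shHMGA1 and 3 of 5 Con peaks lay under the threshold. Neither the summed area nor the median log2 width ratio left its range (1.5 times the area, the 95% interval of the median) under any of its alternatives for the 4 windows together. No paired analysis was possible because the deposited lists are 1 per condition and hold no columns by sample; leaving out a replicate could not be done either. The promoter distances planned as alternatives were left unrun. Without read depth, how many weak peaks each list should hold cannot be judged.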
